A study of Mus musculus with 29 samples.

Results

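The genes followed here form the transcription factor circuit around ATF4 and CHOP, the nuclear arm of the integrated stress response. They were chosen by symbol and not by their values: Atf4, Atf3, Atf5, Ddit3, Cebpb, Cebpg, Trib3, Nupr1 and Jdp2, which are 9 of the 22327 gene symbols in the count table. When a stress kinase phosphorylates the translation factor eIF2α, most translation slows while the mRNAs of ATF4 and ATF5, which carry short upstream reading frames, are translated more. ATF4 then pairs with other basic leucine zipper (bZIP) proteins and switches on genes of amino acid supply together with further regulators. Among those regulators are CHOP (gene Ddit3), which is tied to cell death under lasting stress, ATF3, a stress-induced repressor or activator, and the pseudokinase TRIB3, which binds ATF4 and CHOP and holds them back. C/EBPβ and C/EBPγ are dimer partners of ATF4, NUPR1 is a small chromatin-bound stress protein, and JDP2 is the closest relative of ATF3 and a repressor at the same kinds of DNA site.

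Each library holds polyA RNA pulled down with GFP-tagged ribosomes (translating ribosome affinity purification, TRAP) from the cortex of 1 mouse aged 6 months. Every mouse carried Cx3cr1CreErt2/+, a Cre that tamoxifen activates in microglia and in related macrophages, and was given 6 doses of 100 mg/kg tamoxifen. The 5xFAD iPKR mice (n = 4) carried the 5xFAD amyloid transgenes and Eef1a1LSL.NS3.eGFPL10a.iPKR/+, which encodes a controllable version of PKR, one of the eIF2α kinases, along with the tag, and received VEGF (1 µg/kg) and ASV (5 mg/kg) for 4 weeks. ASV is taken here to be asunaprevir, an inhibitor of the viral NS3 protease. The iPKR ASV mice (n = 5) had the same construct and agents without 5xFAD, and the iPKR vehicle mice (n = 4) received VEGF with PEG:DMSO in place of ASV. The 5xFAD Eif2A mice (n = 3) and Eif2A mice (n = 4) carried Eif2s1A/A, an eIF2α that cannot be phosphorylated, and Tg(Eif2s1), which the series description writes as Tg(flEifs1), with and without 5xFAD. Their sample labels list the tag Eef1a1LSL.eGFPL10a/+ and the series description leaves it out, and no ASV or VEGF is recorded for them. The 5xFAD TRAP mice (n = 4) carried 5xFAD and Eef1a1LSL.eGFPL10a/+ and received VEGF and ASV. The TRAP mice (n = 5) carried Eef1a1LSL.eGFPL10a/+ alone with no VEGF or ASV recorded, so 5xFAD, VEGF and ASV cannot be told apart in 5xFAD TRAP against TRAP.

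The libraries held between 1.66 and 32 M counts each (median 6.05 M). Both Eif2A groups lay wholly in batch 1, as the labels give it, and the other groups in batches 1 and 2. Reads from Y-linked genes went against the labelled sex in 8 of the 29 libraries (Eif2A replicates 3 and 4, iPKR ASV replicates 1, 3, 4 and 5, and 5xFAD iPKR replicates 1 and 2). Values without these libraries are given beside many, but not all, of the members' results in the comparisons that hold them. The 9 measured homeostatic microglial genes, such as Csf1r and Tmem119, took 0.342% of counts in 5xFAD iPKR, 0.146% in iPKR ASV and 0.127% in iPKR vehicle, against 1.41% in TRAP. The 12 neuron markers took 2.05%, 1.37% and 0.842% in those iPKR groups, against 0.125% in TRAP. In such bulk pulldowns fewer microglia and less of an RNA per microglial cell cannot be told apart, and a count does not separate the amount of an mRNA from how many ribosomes sit on it. Eif2s1 itself was at 136 to 159 CPM in Eif2A and 118 to 139 CPM in TRAP, where CPM are read counts scaled to a common library size with TMM factors, and gene counts cannot show the exchanged codon.

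All 9 members passed the low-count filter. In TRAP microglia the level per kilobase of exon was highest for Cebpb, at 169.5 ± 35.5 CPM per kb (SD, n = 5), followed by Atf4 at 70.0 ± 1.698, Cebpg at 69.1 ± 7.13 and Jdp2 at 39.4 ± 5.31. Ddit3 (19.7 ± 2.40 CPM per kb) and Nupr1 (19.4 ± 2.12) came next, and Atf3 (9.30 ± 2.05), Trib3 (3.19 ± 2.19) and Atf5 (1.60 ± 0.452) were the lowest. Atf4 varied least among these mice. Atf5 had between 1 and 100 counts in any library, so only large differences could have been detected for it. The RPKM values that the authors deposited divide by the whole gene span, introns included (47744 bases for Atf3 against 2154 bases of exon), and were therefore not used to set one gene beside another. Whether the counts themselves take in intron reads is not stated, and the order per kilobase of exon assumes that they do not.

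**Figure D1:**
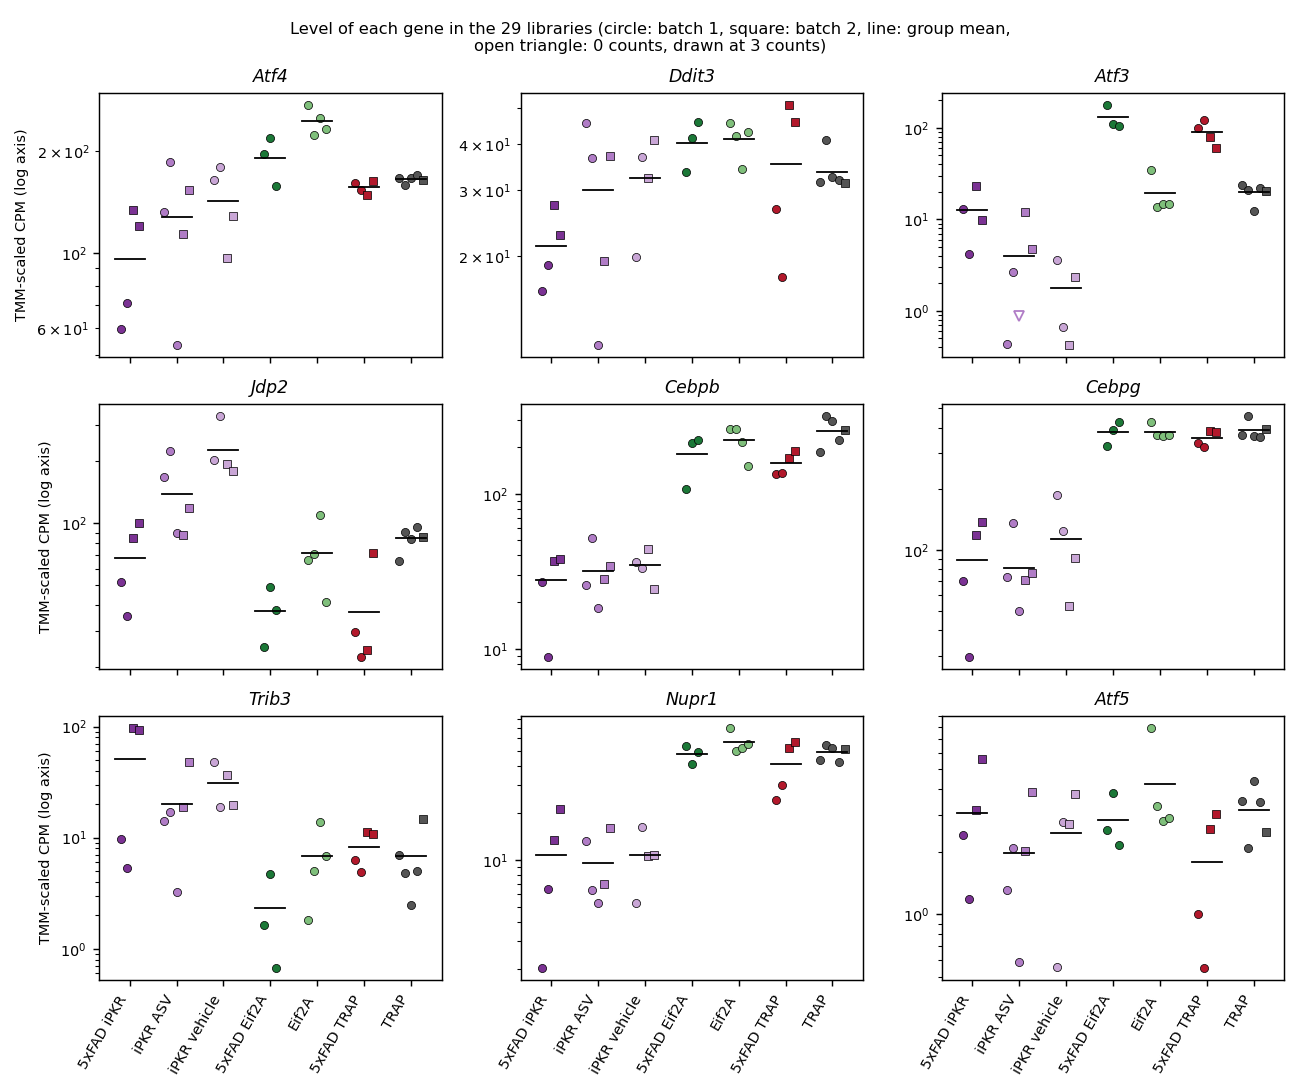
Level of each of the 9 genes in all 29 libraries, in TMM-scaled CPM on log axes. Points are libraries (circles batch 1, squares batch 2), lines are group means, and the open triangle marks iPKR ASV replicate 3, which had 0 Atf3 counts. Atf3 is high in the 5xFAD TRAP and 5xFAD Eif2A libraries, while Cebpb, Cebpg and Nupr1 lie lower in all 3 iPKR groups than in the other 4.

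The promoters of Atf3, Nupr1 and Jdp2 hold the C/EBP-ATF response element, the composite site that ATF4 binds with a C/EBP partner. The letters TGATGNAA were sought on both strands in the 250 bases before each start site in RefSeq (GRCm38.p6, the same build as mm10), and they occurred in 3.45% of 32851 windows of that length. All 9 members had a window, 12 in all, since Atf5 and Jdp2 have several start sites, and these 3 genes held a match in at least 1 of theirs. The stricter TGATGCAA, which all 3 matches spell on one strand or the other, occurred in 0.791% of windows. The Atf3 window (chr1:191183334-191183583, minus strand) is shown whole because it carries a second site as well. Its first capitals are the response element, 110 to 103 bases before the start. Its second capitals are a CRE-type site (TGACGTNA on either strand, in 2.52% of windows), 10 to 3 bases before the start, of the kind that ATF and JDP2 proteins bind.
Atf3: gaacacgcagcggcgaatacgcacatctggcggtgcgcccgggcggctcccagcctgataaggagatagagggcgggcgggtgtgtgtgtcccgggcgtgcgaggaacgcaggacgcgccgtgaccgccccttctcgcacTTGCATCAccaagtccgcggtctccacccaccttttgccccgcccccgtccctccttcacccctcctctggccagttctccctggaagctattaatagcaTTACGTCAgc
The stretches around the Nupr1 match (chr7:126625547-126625606, minus strand) and around the match before 1 of the 3 Jdp2 starts (chr12:85599357-85599415, plus strand) follow, with the element in capitals. They are shown so that the shared core can be read off beside that of Atf3.
Nupr1: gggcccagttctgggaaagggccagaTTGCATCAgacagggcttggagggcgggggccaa
Jdp2: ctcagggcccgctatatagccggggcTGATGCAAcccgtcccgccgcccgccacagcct
A match describes letters in a window and shows no binding, and its absence from the windows of the other 6 genes says only that these letters are not in those 250 bases. Of 23 known ATF4 target genes with a window, 8 held TGATGNAA and 6 the stricter form.

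Atf3 was the only member called between 5xFAD and its controls, and only in 5xFAD Eif2A against Eif2A. It lies at chr1:191170296-191218039 (minus strand) and encodes a bZIP factor that is scarce in unstressed cells. In 5xFAD Eif2A it was at 179, 110 and 105 CPM, against 34.6, 13.8, 14.8 and 14.8 CPM in Eif2A. The lowest 5xFAD Eif2A library was thus above the highest Eif2A library, and 21.1% of all genes tested had no overlap in this comparison. Atf3 rose with a log2 fold change of 2.75 ± 0.62 (SE; edgeR's quasi-likelihood test, adjusted p = 0.00970), and it was the only one of 9 members called, where 3.1% of all 16074 genes tested were called. Without 5xFAD Eif2A replicate 1 the adjusted p was 0.132 at a log2 fold change of 2.34, and without the libraries of mismatched sex it was 0.00665.

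Between 5xFAD TRAP and TRAP the same gene was at 99.8, 121, 80.3 and 60.02 CPM in 5xFAD TRAP, against 23.9, 21.2, 12.5, 22.2 and 20.4 CPM in TRAP. The groups did not overlap, as for 5.35% of all genes. For Atf3 this also held within batch 1 (99.8 and 121 against 12.5 to 23.9 CPM) and within batch 2 (80.3 and 60.02 against 20.4 CPM in the 1 TRAP library there). The log2 fold change was 2.06 ± 0.55 (SE), and the adjusted p of 0.0763 missed the threshold of 0.05. In this comparison 0.79% of all genes were called and 0 of 9 members, although 3 members had an unadjusted p under 0.05 and DESeq2 called 2. In a model of the 4 groups without the iPKR construct alone, added after the data were seen, the log2 fold change was 2.33 ± 0.27. Its adjusted p of 2.43e-05 was the lowest of 20 alternatives, of which 6 passed the threshold, and the highest was 0.398.

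Jdp2, the relative of ATF3 at chr12:85599027-85639878 (plus strand), had the opposite sign. It was at 29.7, 22.5, 24.4 and 71.9 CPM in 5xFAD TRAP, against 65.7, 90.8, 84.4, 95.7 and 86.2 CPM in TRAP. Replicates 1 to 3 lay far below every TRAP library and replicate 4 lay above the lowest of them, though under the 86.2 CPM of the TRAP library in its own batch. The log2 fold change was -1.44 ± 0.37 (SE, adjusted p = 0.0591, the smallest of the 9 members in this comparison). With the 4 groups without the construct alone it was -1.69 ± 0.28 (adjusted p = 0.000871), the lowest adjusted p of 20 alternatives. Of these 10 passed the threshold, and the highest adjusted p was 0.3265. In 5xFAD Eif2A it was at 25.2, 49.3 and 37.8 CPM, against 66.1, 70.6, 110 and 41.6 CPM in Eif2A. Its fitted log2 fold change there was -1.03 ± 0.38 (SE, adjusted p = 0.168), and -1.08 ± 0.27 (adjusted p = 0.00987) with the 4 groups alone. It was -0.998 ± 0.35 (adjusted p = 0.143) when the libraries of mismatched sex were left out. Of 18 alternatives 4 passed the threshold, with adjusted p from 0.00849 to 0.455.

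The 2 genes have nearly the same exon length (2154 and 2148 bases), so their counts were set against each other within a library. Their gene spans are 47744 and 40852 bases, and whether intron reads were counted is not stated. Atf3 had 712, 224 and 278 counts per 100 counts of Jdp2 in 5xFAD Eif2A, against 52.3, 19.5, 13.4 and 35.7 in Eif2A. It had 336, 539, 330 and 83.4 per 100 in 5xFAD TRAP, against 36.4, 23.3, 14.8, 23.2 and 23.7 in TRAP. Atf3 thus outnumbered Jdp2 in 6 of the 7 5xFAD libraries without the iPKR construct and in none of the 9 libraries without 5xFAD. In 5xFAD iPKR the ratio was 24.8, 11.7, 27.3 and 9.93, against 0.260, 1.17, 0, 13.7 and 4.02 in iPKR ASV. This ratio was chosen after the values were seen and was not tested.

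**Figure D2:**
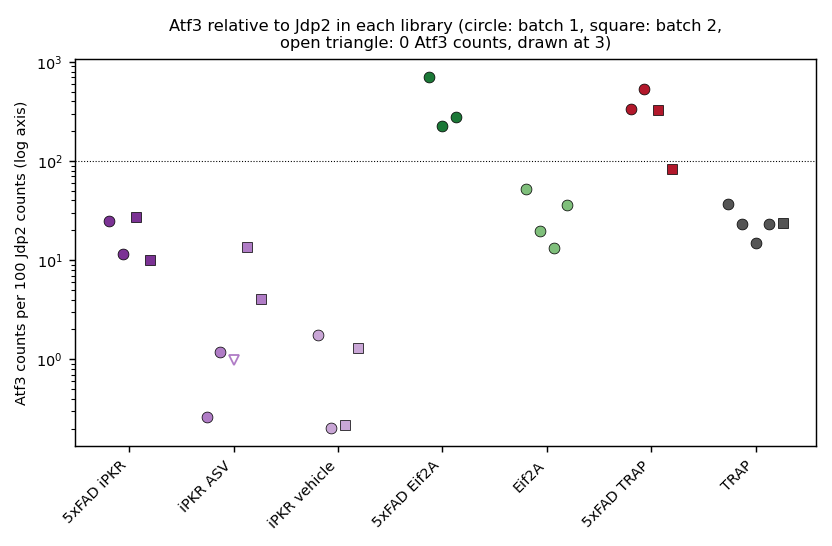
Atf3 counts per 100 Jdp2 counts in each library, on a log axis with equality dotted at 100. Points are libraries (circles batch 1, squares batch 2), and the open triangle is iPKR ASV replicate 3, which had 0 Atf3 counts and is drawn at 3. The 5xFAD Eif2A and 5xFAD TRAP libraries lie at 83.4 or above, and the Eif2A and TRAP libraries at 52.3 or below.

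Atf4 and Ddit3 were not called with 5xFAD. Atf4 (chr15:80255184-80257541, plus strand) was at 161, 153, 148 and 163 CPM in 5xFAD TRAP, against 167, 159, 167, 169 and 164 CPM in TRAP. Its log2 fold change was -0.14 ± 0.27 (SE, 95% interval -0.66 to 0.39), so a change of 2-fold either way lies outside the interval. Ddit3 (chr10:127290774-127296288, plus strand) was at 26.7, 17.5, 51.0 and 45.8 CPM in 5xFAD TRAP, against 31.5, 41.0, 32.7, 32.04 and 31.4 CPM in TRAP. The 2 batch 1 libraries of 5xFAD TRAP lay below all TRAP libraries of that batch, the 2 batch 2 libraries above the TRAP library there, and the fitted difference was -0.12 ± 0.33 (SE, 95% interval -0.76 to 0.52). In batch 1 alone it was -0.73 ± 0.40 (adjusted p = 0.560). Ddit3 overlaps the antisense genes Mars and Gm4189, and without stated strandedness reads of their shared stretch cannot be told apart. In 5xFAD Eif2A Atf4 was at 195, 219 and 157 CPM, against 274, 222, 250 and 232 CPM in Eif2A. Those groups did not overlap, as for 21.1% of all genes, and the log2 fold change was -0.38 ± 0.29 (SE, adjusted p = 0.624). The 4 groups without the construct alone gave -0.37 ± 0.11 (adjusted p = 0.0334), the only 1 of 18 alternatives to pass, and the highest adjusted p was 0.865. The Atf4 value was -0.36 ± 0.19 (adjusted p = 0.405) without the libraries of mismatched sex.

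Cebpb and Cebpg encode the dimer partners. Cebpb (chr2:167688915-167690418, plus strand), which also drives inflammatory genes in myeloid cells, was at 135, 136, 169 and 188 CPM in 5xFAD TRAP, against 185, 316, 296, 222 and 256 CPM in TRAP. Only the highest 5xFAD TRAP library reached the lowest TRAP library, at a log2 fold change of -0.86 ± 0.31 (SE, adjusted p = 0.281). Within the 4 groups without the construct the value was -0.89 ± 0.23 (adjusted p = 0.0252). Of 20 alternatives 3 passed the threshold, and the highest adjusted p was 0.776. Part of Cebpb overlaps Tmem189 on the other strand. In 5xFAD Eif2A Cebpb ranged from 108 to 221 CPM, and from 151 to 262 CPM in Eif2A. Cebpg (chr7:35046422-35056573, minus strand) was the steadiest of the partners, with 322 to 388 CPM in 5xFAD TRAP against 361 to 456 CPM in TRAP, and 327 to 429 CPM in 5xFAD Eif2A against 364 to 428 CPM in Eif2A.

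Among the feedback and effector members, Trib3 (chr2:152337422-152344032, minus strand) was low outside the iPKR groups. It was at 1.64, 4.74 and 0.665 CPM in 5xFAD Eif2A, against 1.80, 4.97, 13.9 and 6.86 CPM in Eif2A. These ranges overlapped, with a log2 fold change of -1.65 ± 0.74 (SE, adjusted p = 0.276), and without the libraries of mismatched sex, of which 2 are in Eif2A, it was -0.56 ± 0.69. In the plain-tag groups Trib3 was at 4.93 to 11.1 CPM in 5xFAD TRAP and 2.50 to 14.6 CPM in TRAP. Nupr1 (chr7:126623249-126630861, minus strand) was at 24.0, 30.1, 52.3 and 57.2 CPM in 5xFAD TRAP, against 43.8, 54.3, 52.3, 42.4 and 51.0 CPM in TRAP. As for Ddit3, the 2 low libraries were those of batch 1. Atf5 (chr7:44812256-44816658, minus strand), a second factor under the same translational control, was at 0.548 to 3.04 CPM in 5xFAD TRAP and 2.10 to 4.37 CPM in TRAP, from as few as 1 count, and it overlaps Il4i1 and Nup62.

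**Figure D3:**
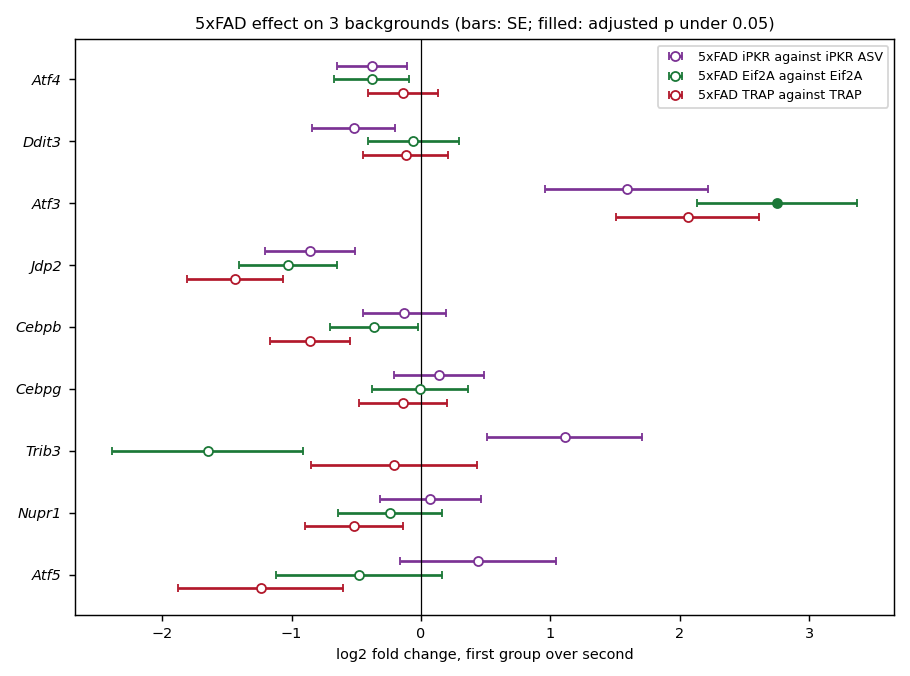
log2 fold change of each member with 5xFAD on 3 backgrounds, as points with SE bars, 5xFAD iPKR against iPKR ASV above 5xFAD Eif2A against Eif2A above 5xFAD TRAP against TRAP. Filled points passed an adjusted p of 0.05, which only Atf3 in 5xFAD Eif2A against Eif2A did (2.75). Atf3 lies above 0 and Jdp2 below 0 in each comparison. Of the plain-tag groups only 5xFAD TRAP had VEGF and ASV recorded.

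In iPKR mice given ASV, Atf3 was at 12.9, 4.14, 23.2 and 9.96 CPM in 5xFAD iPKR, against 0.438, 2.64, 0, 12.01 and 4.78 CPM in iPKR ASV. The library at 0 counts allows up to 0.884 CPM (3 counts). The groups overlapped through iPKR ASV replicate 4, and the log2 fold change of 1.59 ± 0.63 (SE, adjusted p = 0.240) missed the threshold. Jdp2 was at 51.9, 35.5, 84.9 and 100 CPM in 5xFAD iPKR, against 169, 226, 89.6, 87.8 and 119 CPM in iPKR ASV, at a log2 fold change of -0.86 ± 0.35 (SE, adjusted p = 0.254). In batch 1 alone its log2 fold change was -1.65 ± 0.39 (adjusted p = 0.0293), whereas the batch 2 libraries overlapped. Of the 9 libraries compared 6 are of mismatched sex. Without them the log2 fold change of Atf3 was 2.71 ± 0.90 (adjusted p = 0.153) and that of Jdp2 was -1.12 ± 0.50 (adjusted p = 0.363). None of 9 members was called by edgeR's quasi-likelihood test and none by DESeq2, 2 had an unadjusted p under 0.05, and 1.72% of all genes were called. In the same comparison the 9 homeostatic microglial genes had a median log2 fold change of 1.32, and the list took 0.342% of counts in 5xFAD iPKR against 0.146% in iPKR ASV, and their part in the members' values was not tested. The 5xFAD effect was also compared between backgrounds. On the plain tag only the 5xFAD mice had VEGF and ASV recorded. On Eif2A neither group had them, and on iPKR with ASV both groups did. A difference between backgrounds therefore cannot be told apart from an effect of these agents. For Atf3 the effect on Eif2A exceeded that on the plain tag by 0.69 ± 0.80 on the log2 scale (SE, 95% interval -0.89 to 2.27). That on iPKR with ASV minus that on the plain tag was -0.47 ± 0.87 (95% interval -2.18 to 1.23). In these 2 tests edgeR called 0 of 9 members and DESeq2 0, none had an unadjusted p under 0.05, and 0.00622% and 0.0373% of all genes were called. Intervals this wide leave differences of 2-fold and more undetectable.

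The allele that blocks eIF2α phosphorylation was compared with the plain tag in mice without 5xFAD. Atf4 was at 274, 222, 250 and 232 CPM in Eif2A, against 167, 159, 167, 169 and 164 CPM in TRAP. Every Eif2A library lay above every TRAP library (3.89% of all genes had no overlap here), and since all 4 Eif2A and 4 of the TRAP libraries are in batch 1, this also held there. The log2 fold change was 0.61 ± 0.26 (SE, unadjusted p = 0.0268, adjusted p = 0.866). With the 4 groups without the construct alone it was 0.54 ± 0.10 (adjusted p = 0.0136), the only 1 of 20 alternatives to pass. Without the libraries of mismatched sex it was 0.51 ± 0.18 (adjusted p = 0.451). Of the members 0 of 9 were called by edgeR and 0 by DESeq2, with 1 at an unadjusted p under 0.05. Over all genes edgeR called 0 (0%) with 912 at an unadjusted p under 0.05, and DESeq2 called 41. In 5xFAD mice Atf4 was at 195, 219 and 157 CPM in 5xFAD Eif2A, against 161, 153, 148 and 163 CPM in 5xFAD TRAP. These groups overlapped through 5xFAD Eif2A replicate 3, and the log2 fold change was 0.36 ± 0.31 (SE, adjusted p = 0.713). There edgeR called 0 of 9 members (0.168% of all genes), DESeq2 called 0 and none had an unadjusted p under 0.05, but the 5xFAD TRAP mice had VEGF and ASV and the 5xFAD Eif2A mice did not. The order of Atf4 means was Eif2A (245 ± 22.6 CPM), 5xFAD Eif2A (190 ± 31.2), TRAP (165 ± 4.00), 5xFAD TRAP (156 ± 6.84), iPKR vehicle (142 ± 36.9), iPKR ASV (128 ± 49.4) and 5xFAD iPKR (96.0 ± 36.3), and of these neighbours only the first and second had ranges that did not overlap. Scaled by total counts alone, as in the authors' RPKM, the order of Atf4 means differed. It ran Eif2A (90.1), iPKR vehicle (73.0), iPKR ASV (68.1), TRAP (64.7), 5xFAD Eif2A (63.0), 5xFAD TRAP (58.9) and 5xFAD iPKR (45.5). Eif2A stayed highest and 5xFAD iPKR lowest, and the order between them depends on the scaling. Ddit3 did not follow with a comparable step, at 34.4 to 45.6 CPM in Eif2A and 31.4 to 41.0 CPM in TRAP.

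ASV was compared with vehicle in iPKR mice. By edgeR 0 of 9 members were called, by DESeq2 0, and 0.423% of all genes. The 1 member with an unadjusted p under 0.05 was Atf3, at 0.438, 2.64, 0, 12.01 and 4.78 CPM in iPKR ASV, against 3.63, 0.667, 0.421 and 2.34 CPM in iPKR vehicle. Its log2 fold change of 1.41 ± 0.68 (SE) had an adjusted p of 0.298, in batch 1 alone it was -0.25 ± 0.95, and without the libraries of mismatched sex it was 0.73 ± 0.84. Atf4 was at 53.3 to 186 CPM in iPKR ASV and 96.5 to 179 CPM in iPKR vehicle, with overlap. Ddit3 was at 11.5 to 45.6 CPM in iPKR ASV and 19.8 to 41.0 CPM in iPKR vehicle, and Trib3 at 3.24 to 47.7 CPM in iPKR ASV and 18.9 to 47.7 CPM in iPKR vehicle, again with overlap.

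The libraries with the construct differed from those with the plain tag in 6 of 9 members, in the same directions with and without 5xFAD. The iPKR vehicle mice received VEGF with PEG:DMSO and no VEGF is recorded for TRAP, so these agents and the construct cannot be told apart there. Both 5xFAD iPKR and 5xFAD TRAP mice received VEGF and ASV. Atf3, Cebpb, Cebpg and Nupr1 fell and Trib3 and Jdp2 rose, both in iPKR vehicle against TRAP (54.1% of all genes called) and in 5xFAD iPKR against 5xFAD TRAP (47.9%). The groups did not overlap for 48.6% and 42% of all genes. With shares of that size the count of members, or their lack of overlap, says little about the circuit itself. The median log2 fold change over all genes was 0.17 and 0.20, so the values below are slightly high relative to the typical gene. In the same comparisons all 9 measured homeostatic genes fell (median log2 fold change -4.09 and -2.60) and all 12 neuron markers rose (2.68 and 2.41). Of 9 astrocyte markers 8 rose in each, and of 10 oligodendrocyte markers 7 and 10. Their part in the members' values was not tested.

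Cebpb was at 36.3, 33.3, 43.9 and 24.4 CPM in iPKR vehicle, against 185, 316, 296, 222 and 256 CPM in TRAP. Every iPKR library was thus far below every TRAP library, and the log2 fold change was -3.05 ± 0.34 (SE, adjusted p = 2.93e-08 by edgeR's quasi-likelihood test). With 5xFAD Cebpb was at 27.0, 8.88, 36.8 and 38.1 CPM in 5xFAD iPKR, against 135, 136, 169 and 188 CPM in 5xFAD TRAP, at -2.35 ± 0.35 (adjusted p = 4.96e-06). Atf3 fell with a log2 fold change of -3.87 ± 0.69 in iPKR vehicle against TRAP (adjusted p = 2.90e-05), where 3 of the 4 iPKR vehicle libraries held 13 to 24 counts and replicate 3 held 2. It fell by 2.93 ± 0.65 on the log2 scale in 5xFAD iPKR against 5xFAD TRAP (adjusted p = 0.000519), with 7 to 226 counts in the 5xFAD iPKR libraries. Without the libraries of mismatched sex the fold changes between 5xFAD iPKR and 5xFAD TRAP were -2.51 ± 0.54 for Atf3 (adjusted p = 0.000982) and -1.98 ± 0.29 for Cebpb (adjusted p = 2.76e-05).

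Cebpg was at 187, 123.5, 52.8 and 90.8 CPM in iPKR vehicle, against 369, 456, 363, 361 and 393 CPM in TRAP, and it fell by 1.79 ± 0.34 on the log2 scale (SE, adjusted p = 7.64e-05). In 5xFAD iPKR it was at 70.0, 29.6, 119 and 137 CPM, against 337, 322, 388 and 383 CPM in 5xFAD TRAP, at a log2 fold change of -1.98 ± 0.37 (adjusted p = 8.85e-05). Even the highest library with the construct, at 187 CPM, was below the lowest without it. Nupr1 was at 5.30, 16.3, 10.5 and 10.7 CPM in iPKR vehicle, against 43.8, 54.3, 52.3, 42.4 and 51.0 CPM in TRAP, at -2.30 ± 0.39 (adjusted p = 1.44e-05). In 5xFAD iPKR it was at 2.01, 6.51, 13.3 and 21.2 CPM, against 24.0, 30.1, 52.3 and 57.2 CPM in 5xFAD TRAP, at -1.96 ± 0.41 (adjusted p = 0.000308). The Nupr1 groups were separate in both comparisons, though the highest 5xFAD iPKR library came close to the lowest of 5xFAD TRAP. Without the libraries of mismatched sex the 5xFAD iPKR values were -1.38 ± 0.31 for Cebpg (adjusted p = 0.00157) and -1.44 ± 0.39 for Nupr1 (adjusted p = 0.00661).

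Trib3 and Jdp2 went the other way. Trib3 was at 47.7, 18.9, 37.0 and 19.6 CPM in iPKR vehicle, against 7.01, 4.79, 2.50, 4.99 and 14.6 CPM in TRAP. The groups did not overlap, and it rose with a log2 fold change of 1.95 ± 0.59 (SE, adjusted p = 0.00695). Without iPKR vehicle replicate 1 the value was 1.17 ± 0.58 with an adjusted p of 0.0985. In 5xFAD iPKR Trib3 split by batch, at 9.66 and 5.33 CPM in batch 1 and at 97.3 and 93.9 CPM in batch 2. The 5xFAD TRAP libraries were at 6.34 and 4.93 CPM in batch 1 and at 11.1 and 10.7 CPM in batch 2. The pooled log2 fold change was 2.55 ± 0.70 (SE, adjusted p = 0.00373), and in batch 1 alone it was 1.07 ± 0.92 (adjusted p = 0.370). The batch 1 libraries of 5xFAD iPKR are also those of mismatched sex and those with the most neuron marker counts (3.30% and 3.77%). Without the libraries of mismatched sex Trib3 rose by 3.52 ± 0.58.

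Jdp2 was at 204, 331, 195 and 179 CPM in iPKR vehicle, against 65.7, 90.8, 84.4, 95.7 and 86.2 CPM in TRAP, with no overlap and a log2 fold change of 1.25 ± 0.33 (SE, adjusted p = 0.00242). It was at 51.9, 35.5, 84.9 and 100 CPM in 5xFAD iPKR, against 29.7, 22.5, 24.4 and 71.9 CPM in 5xFAD TRAP, which overlapped, with a log2 fold change of 1.21 ± 0.38 (adjusted p = 0.0109). That call was lost in 5 of 19 alternatives, namely in batch 1 alone (1.03 ± 0.44, adjusted p = 0.0680), in the model without sex (adjusted p = 0.0551), with sex taken from Y-linked reads (adjusted p = 0.0558), without 5xFAD TRAP replicate 3 (adjusted p = 0.0510) and without 5xFAD iPKR replicate 4 (adjusted p = 0.0527). It was 1.57 ± 0.36 (adjusted p = 0.00163) without the libraries of mismatched sex.

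Atf4, Ddit3 and Atf5 were not called in either comparison. Atf4 was at 164, 179, 96.5 and 129 CPM in iPKR vehicle, against 167, 159, 167, 169 and 164 CPM in TRAP, and the difference was -0.26 ± 0.26 on the log2 scale (SE, 95% interval -0.78 to 0.25). In 5xFAD iPKR it was at 59.6, 71.0, 134 and 120 CPM, against 161, 153, 148 and 163 CPM in 5xFAD TRAP, with no overlap and a log2 fold change of -0.66 ± 0.29 (SE, adjusted p = 0.0607). Atf4 passed in 6 of 19 alternatives. With the replicate number as a block it was -0.75 ± 0.27 (adjusted p = 0.0438), which gave 7 members in place of 6, and the value farthest from 0 was -1.18 ± 0.37 in batch 1 alone (adjusted p = 0.0140). The others that passed were the model without sex, sex from Y-linked reads and the fits without 5xFAD iPKR replicate 3 or 4, with adjusted p from 0.0245 to 0.0403. Leaving out the libraries of mismatched sex gave -0.25 ± 0.20 (adjusted p = 0.348). Ddit3 differed by -0.20 ± 0.31 in iPKR vehicle against TRAP and by -0.66 ± 0.34 in 5xFAD iPKR against 5xFAD TRAP, and Atf5 by -0.69 ± 0.58 and 0.68 ± 0.66. The mean RPKM of Ddit3, scaled by total counts, was 7.19 in iPKR vehicle and 5.65 in TRAP. For Atf5 it was 0.685 and 0.669. The sign of these differences between iPKR vehicle and TRAP thus also depends on the scaling.

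**Figure D4:**
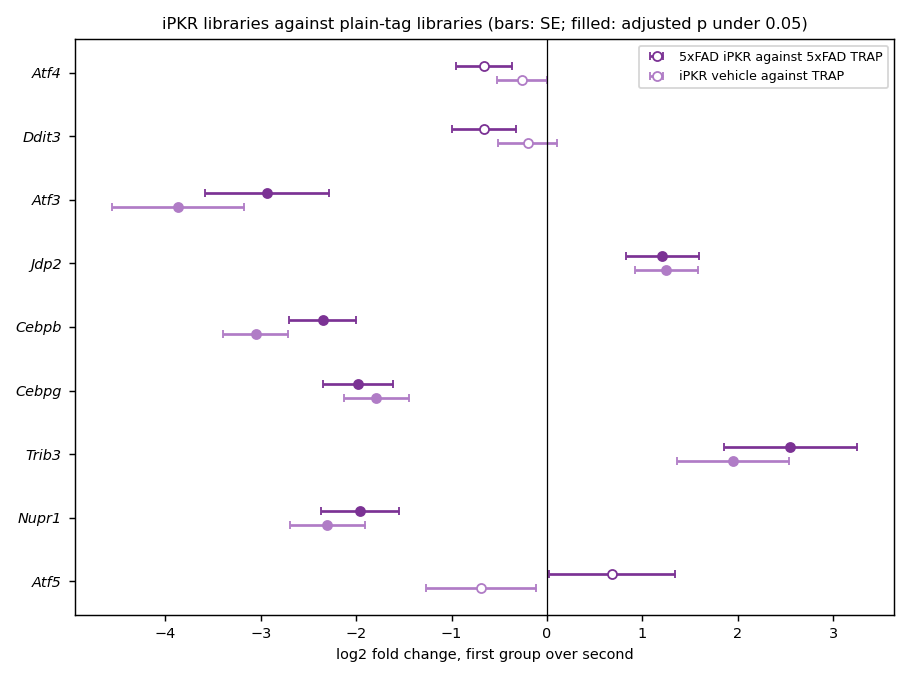
log2 fold change of each member in 5xFAD iPKR against 5xFAD TRAP (above) and iPKR vehicle against TRAP (below), as points with SE bars. Filled points passed an adjusted p of 0.05. Trib3 and Jdp2 lie above 0 and Atf3, Cebpb, Cebpg and Nupr1 below 0 in both, while Atf4, Ddit3 and Atf5 are open.

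The genes that ATF4 is known to switch on were followed as a list of 32, of which 29 were in the table and 27 were tested. In 5xFAD TRAP against TRAP (0.79% of all genes called) 1 rose and 1 fell, with a median log2 fold change of 0.37 beside -0.06 over all genes. Of the 27, 7 had an unadjusted p under 0.05 and DESeq2 called 3. Psat1, an enzyme of serine synthesis, rose to 255 ± 115.5 CPM in 5xFAD TRAP (SD, n = 4), against 70.95 ± 18.4 CPM in TRAP (n = 5), at a log2 fold change of 2.13 ± 0.30 (SE, adjusted p = 0.000132). Ddit4, an inhibitor of mTORC1, fell to 18.2 ± 11.04 CPM in 5xFAD TRAP, against 99.8 ± 86.05 CPM in TRAP (-3.05 ± 0.63, adjusted p = 0.0104), and that call was lost in 6 of 20 alternatives, among them batch 1 alone (adjusted p = 0.0885) and the fit without 5xFAD TRAP replicate 2 (adjusted p = 0.0781). In 5xFAD Eif2A against Eif2A (3.1% of all genes called) 1 of 27 rose (median 0.16, all genes -0.06), again Psat1. It was at 350.5 ± 73.5 CPM in 5xFAD Eif2A (n = 3) and 85.1 ± 36.6 CPM in Eif2A (n = 4). Its log2 fold change was 2.17 ± 0.33 (edgeR, adjusted p = 0.000187). Here 5 of the 27 had an unadjusted p under 0.05 and DESeq2 called 1. In 5xFAD iPKR against iPKR ASV (1.72% of all genes called) 1 rose (median 0.37, all genes 0.01). It was the serine pathway enzyme Phgdh, at 0.96 ± 0.24 (edgeR, adjusted p = 0.0331). Of the 27, 5 had an unadjusted p under 0.05 and DESeq2 called 2. The Phgdh call was lost in 14 of 20 alternatives, with an adjusted p of 0.133 without 5xFAD iPKR replicate 2. Without the libraries of mismatched sex the value was 0.48 ± 0.39 (adjusted p = 0.690). In Eif2A against TRAP (0% of all genes called) edgeR called 0 of the 27 (1 at an unadjusted p under 0.05, DESeq2 0), and the median was -0.35 beside 0 over all genes. In 5xFAD Eif2A against 5xFAD TRAP (0.168% of all genes called) it called 0 (3 at an unadjusted p under 0.05, DESeq2 2), with a median of -0.36 beside 0.03.

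In iPKR vehicle against TRAP 7 of the 27 ATF4 targets rose and 8 fell (median 0.18, all genes 0.17), where 54.1% of all genes were called, 4605 higher and 4090 lower. Vldlr, a lipoprotein receptor, rose to 41.2 ± 7.16 CPM in iPKR vehicle (SD, n = 4), against 7.17 ± 3.68 CPM in TRAP (n = 5), at a log2 fold change of 2.69 ± 0.36. The amino acid transporter Slc38a2 rose by 1.76 ± 0.27 on the log2 scale, while Phgdh (-1.93 ± 0.26) and Herpud1 (-1.78 ± 0.28), a protein of ER quality control, fell. In 5xFAD iPKR against 5xFAD TRAP 9 rose and 5 fell (median 0.12, all genes 0.20), where 47.9% of all genes were called. Counts near these shares say nothing particular about the targets. There asparagine synthetase Asns (2.64 ± 0.51), Vldlr (2.48 ± 0.40), Slc38a2 (1.76 ± 0.31) and Chac1 (2.53 ± 0.54), which degrades glutathione, rose. The value of Asns was 1.12 ± 0.39 (adjusted p = 0.0275) without the libraries of mismatched sex.

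Of 5 tested genes tied to CHOP, edgeR called 0 in 5xFAD TRAP against TRAP (2 at an unadjusted p under 0.05, DESeq2 0), with a median of -0.29. Of all genes 0.79% were called there. This list sets no direction for its genes, so a count of those that rose is no measure of CHOP activity. In 5xFAD Eif2A against Eif2A (3.1% of all genes called) 1 rose, the ER oxidase Ero1l. It was at 30.2 ± 0.928 CPM in 5xFAD Eif2A and 11.1 ± 4.09 CPM in Eif2A (log2 fold change 1.43 ± 0.35, edgeR, adjusted p = 0.0173). That call was lost when any of 6 single libraries was left out (adjusted p up to 0.0636). In iPKR vehicle against TRAP 4 rose, among them Bcl2 (1.84 ± 0.34), Ero1l (1.34 ± 0.31) and Ppp1r15a (1.48 ± 0.37), the stress-induced subunit that leads phosphatase to eIF2α, and Bcl2l11 fell (-1.39 ± 0.41). In 5xFAD iPKR against 5xFAD TRAP 1 of the 5 rose, Ppp1r15a (1.17 ± 0.42), a call lost in 8 of 19 alternatives. Of 7 genes for the eIF2α kinases, eIF2α itself and its phosphatase subunits, Ppp1r15a rose and 3 fell in iPKR vehicle against TRAP, namely Eif2s1 (-1.08 ± 0.24), Eif2ak2 (-2.27 ± 0.78), which encodes the native PKR, and Eif2ak1 (-0.65 ± 0.25). The call of Eif2ak2 was lost in 2 of 20 alternatives, batch 1 alone (-1.53 ± 0.72, adjusted p = 0.0804) and without iPKR vehicle replicate 4 (adjusted p = 0.0605). That of Eif2ak1 was lost in 3 of 20, without TRAP replicate 5 (adjusted p = 0.0808), iPKR vehicle replicate 2 (adjusted p = 0.116) or iPKR vehicle replicate 3 (adjusted p = 0.0760). In 5xFAD iPKR against 5xFAD TRAP 1 of the 7 rose and 4 fell. There the call of Eif2ak1 was lost in 9 of 19 alternatives (-0.18 ± 0.27 in batch 1 alone, adjusted p = 0.624) and that of Eif2s1 in 3 of 19. In these comparisons 54.1% and 47.9% of all genes were called.

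Of 32 other bZIP genes tested, edgeR called 0 in 5xFAD TRAP against TRAP (4 at an unadjusted p under 0.05, DESeq2 0), where 0.79% of all genes were called. In 5xFAD Eif2A against Eif2A (3.1% of all genes called) Crem (1.22 ± 0.29) and Nfil3 (1.09 ± 0.30) rose and Hlf (-1.60 ± 0.34) fell. In 5xFAD iPKR against iPKR ASV (1.72% of all genes called) Nfe2l2 (1.26 ± 0.24), which drives antioxidant genes, and Nfil3 (1.06 ± 0.28) rose. Nfil3, a regulator of circadian and immune genes, fell in iPKR ASV against iPKR vehicle (-1.58 ± 0.27), where it averaged 7.96 ± 0.733 CPM in iPKR ASV (SD, n = 5) and 23.8 ± 3.99 CPM in iPKR vehicle (n = 4). That call was lost in 3 of 20 alternatives, with only the groups compared (adjusted p = 0.218), with the replicate block (adjusted p = 0.383) and without the libraries of mismatched sex (adjusted p = 0.304). The Nfil3 calls with 5xFAD were lost in 12 of 18 alternatives on Eif2A and in 16 of 20 on iPKR, that of Crem in 4 of 18, that of Nfe2l2 in 4 of 20 and that of Hlf in 2 of 18. Without the libraries of mismatched sex Nfe2l2 was at 1.34 ± 0.39 with an adjusted p of 0.0983 and Crem at 1.18 ± 0.35 with an adjusted p of 0.0701. In iPKR vehicle against TRAP (54.1% of all genes called) 8 of the 32 rose and 15 fell, with Nfe2l2 (-4.20 ± 0.28), Cebpd (-3.23 ± 0.34) and Cebpa (-3.74 ± 0.45) lower.

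Among 12 immediate-early genes, which also respond to handling of tissue, Ier2 (1.52 ± 0.38) and Egr2 (2.43 ± 0.66) rose in 5xFAD Eif2A against Eif2A (3.1% of all genes called), beside the rise of Atf3. Their calls were lost in 5 and 7 of 18 alternatives, that of Egr2 also without the libraries of mismatched sex (adjusted p = 0.133). By edgeR 0 were called in 5xFAD TRAP against TRAP (6 at an unadjusted p under 0.05, DESeq2 0), where the list's median was -1.04. Of all genes 0.79% were called there. In iPKR vehicle against TRAP (54.1% of all genes called) 4 rose, Dusp1 (2.37 ± 0.28), Nr4a1 (2.12 ± 0.43), Egr1 (1.93 ± 0.41) and Arc (2.01 ± 0.58), and 1 fell, beside the lower Atf3 there. In 5xFAD iPKR against 5xFAD TRAP (47.9% of all genes called) 6 rose and 2 fell. The list took 0.0596% of counts in 5xFAD Eif2A against 0.0590% in Eif2A, and 0.0628% in 5xFAD TRAP against 0.0891% in TRAP. The homeostatic genes took 1.27% in 5xFAD Eif2A against 1.17% in Eif2A, and 1.35% in 5xFAD TRAP against 1.41% in TRAP.

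Across the 29 libraries, the genes whose centred log2 CPM lay nearest to each member were sought among 11234 named genes. For Atf3 they were Naip2 and Cd68, a lysosomal protein of macrophages, with root mean square differences of 0.885 and 0.936 against a spread of Atf3 itself of 2.45 (SD). For Cebpb they were Ptp4a2 (0.347) and Sh3glb1 (0.356) against a spread of 1.498, and for Cebpg Ankrd13a (0.235) and Rbm7 (0.268) against 1.20. Nupr1 lay nearest Cyb5a (0.381) and Higd2a (0.391), and Jdp2 nearest Camk2n1 (0.457), a neuronal kinase inhibitor, and Map3k10 (0.460). Trib3 lay nearest Dot1l (0.732) and Zcchc3 (0.734). Atf4 (nearest Mrpl18, 0.244), Ddit3 (Surf1, 0.271) and Atf5 (Dynll1, 0.539) had small spreads of their own, at 0.556, 0.535 and 0.798. Within the circuit Cebpb and Cebpg were nearest to each other (0.507), as were Atf4 and Ddit3 (0.412), whereas the nearest member to Jdp2, Ddit3, differed by 1.09, more than Jdp2's own spread of 1.01. All libraries share the gap between iPKR and other groups, and the distances are given as a description only.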

How the data were processed

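The 29 TRAP libraries come from mouse cortex and, per the labels' protocols, from a SMART-Seq mRNA LP preparation. The submitters' processing notes name mm10 and list featureCounts 2.0.3, HISAT2 2.2.1 and Trim Galore. Strandedness is not given in the sources used here. The authors deposited raw counts per gene symbol, which were used for every test, and RPKM values, whose length is the gene span and which served as a check only. Genes were filtered with filterByExpr (minimum count 10, minimum total 15), leaving 16074 of 22327, and tested in R 4.3.3 with edgeR 4.0.16. The test was the quasi-likelihood F-test, two-sided, on 1 model with group, batch and labelled sex over all 29 libraries, with TMM factors, Benjamini-Hochberg adjustment over all genes and a threshold of 0.05. Fold changes are log2 with SE. Floors are 3 counts and, as reads carried no molecular identifiers, cover counting error only. Each library is 1 mouse.

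The members and lists were chosen with earlier results of these data known. Named were all members, up to 4 called genes of each list per comparison with the smallest p, and the 2 nearest genes to each member. Some genes that the rule names are not reported here. Gene coordinates come from GENCODE M21, promoters from RefSeq. The procedure was tested on simulated data. Same-numbered libraries of 5xFAD iPKR and 5xFAD TRAP deviated together (correlations 0.167, 0.113, 0.165 and 0.216; both have replicates 1 and 2 in batch 1), which pairs them by the rule of all pairs over 0.1; elsewhere numbers did not pair. Alternatives were RLE factors, no low-count filter, DESeq2 1.42.0, a replicate block, a fit restricted to the compared groups or to batch 1, leaving the sex or the batch term out of the model, removal of the 3 libraries richest in neuron markers, and each library left out. Added after seeing the data were sex from Y-linked reads, removal of the 8 mismatched libraries, and the 4 groups without the construct alone.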

Additional observations from a re-analysis of the deposited data

Results flagged for a closer look

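Of 54 sets of values (9 genes in 6 groups of 4 or 5 libraries), 6 held a library far from the others by Dixon's criterion on unlogged CPM. The criterion flags about 1 in 20 independent sets of normally distributed values. Here all 6 libraries were on the high side and 3 of the 6 sets share 1 library. Whether 6 of 54 is more than chance gives was therefore not judged. Eif2A replicate 1 was the high library for 3 genes: Atf3 at 34.6 CPM against 13.8 to 14.8 CPM in the other Eif2A libraries, Atf5 at 7.92 against 2.82 to 3.31 CPM, and Cebpg at 428 against 364 to 370 CPM. Jdp2 in 5xFAD TRAP replicate 4 was at 71.9 CPM, against 22.5 to 29.7 CPM in the other 3. Jdp2 in iPKR vehicle replicate 2, the deepest library, was at 331 CPM against 179 to 204 CPM, and Ddit3 in TRAP replicate 2 at 41.0 CPM against 31.4 to 32.7 CPM.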

How the results depend on the processing

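The number of members called in 5xFAD TRAP against TRAP was 0, and 1 with RLE factors or no filter (Jdp2), 2 in batch 1 alone, with a replicate block and with DESeq2 (Atf3 and Jdp2), and 3 with only the groups compared, without the 8 mismatched libraries and with the 4 groups without the construct (Atf3, Cebpb and Jdp2). Leaving out single libraries gave 0 to 1. In 5xFAD Eif2A against Eif2A the count was 1, and 2 with only the groups compared, with the replicate block and with DESeq2, and 3 with the 4 groups alone, with 0 to 1 when single libraries were left out. It was 1 in place of 0 in batch 1 alone for 5xFAD iPKR against iPKR ASV, and 1 in place of 0 with the 4 groups alone for Eif2A against TRAP. It stayed at 6 in iPKR vehicle against TRAP, and 5 to 6 when single libraries were left out, and ranged from 5 to 7 in 5xFAD iPKR against 5xFAD TRAP, with 7 under the replicate block. With the block the count was the same as without it in the other 7 comparisons. For 34 of the member fold changes given, 675 alternative settings were run in all. Of these 627 kept the direction and side of the threshold and 8 changed the sign. Ddit3 in 5xFAD TRAP against TRAP was 0.077 without the batch term, -0.729 in batch 1 alone and -0.334 to 0.115 when single libraries were left out, and Atf4 there was 0.032 without the mismatched libraries. Atf3 in iPKR ASV against iPKR vehicle was -0.252 in batch 1 alone. The difference for Atf3 between the 5xFAD effects on iPKR and on the plain tag was 0.176 in batch 1 alone, 0.200 with only the groups compared, 0.35 without the mismatched libraries and ranged from -1.005 to 0.125 when single libraries were left out, the highest without iPKR ASV replicate 4. The causes were not tested. Over all genes DESeq2 called 339, 1034, 674, 275 and 525 in 5xFAD TRAP against TRAP, 5xFAD Eif2A against Eif2A, 5xFAD iPKR against iPKR ASV, 5xFAD Eif2A against 5xFAD TRAP and iPKR ASV against iPKR vehicle, where edgeR called 127, 499, 277, 27 and 68. Depth limits Atf5, and Atf3 in the iPKR groups, most.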
